A study of Drosophila melanogaster with 18 samples.

Results

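The genes described here are those of autophagy and of the vacuolar proton pump, the V-ATPase, in Drosophila S2R+ cells depleted of parts of the complex that writes N6-methyladenosine (m6A) on messenger RNA. They were chosen by FlyBase symbol, as every gene whose symbol starts with Atg and a digit or with Vha, together with ref(2)P, Rubicon and Mitf, and were matched by FlyBase ID. The rule itself uses no measured values, but it was chosen with earlier results of these data known. The rule found 56 genes, of which 20 are Atg genes, 33 are Vha genes and 3 are the named additions, among 17559 gene IDs in all. A row of counts was found for 52 of them, and 38 passed the filter on low counts, as did 8146 genes in all. Vha13, Vha26, Vha44 and VhaAC39-1, which encode the V-ATPase subunits G, E, C and d, had no row under their current IDs and were not analysed here.

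Autophagy wraps cytoplasm in a double membrane that fuses with the lysosome. The Atg1 kinase, with Atg13, Atg17 and Atg101, starts the process, Atg9 and Atg2 bring lipid, and a class III phosphatidylinositol 3-kinase (PI3K) complex that contains Atg6 and Atg14 makes the lipid that Atg18a and Atg18b bind. Ubiquitin-like conjugation, run by Atg7, Atg3, Atg10, Atg12, Atg5, Atg16 and the Atg4 proteases, then fixes Atg8a to the membrane, and ref(2)P, the counterpart of mammalian p62, carries cargo to it and is itself degraded. The lysosome digests the content only if it is acid, and the V-ATPase pumps the protons: its V1 sector splits ATP outside the membrane and its V0 sector conducts protons through it. In Drosophila the transcription factor Mitf, the counterpart of mammalian TFEB, is known to activate V-ATPase and autophagy genes, and blood-like cells are known for lysosomes that digest what the cells engulf.

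S2R+ is an adherent line derived from Drosophila embryos with features of blood cells (hemocytes). Polyadenylated RNA was sequenced from cells at passages 8 to 10 given 10 µg of double-stranded RNA 3 times within 6 days, with 3 libraries in each of 6 groups. The Control group received double-stranded RNA against LacZ, a bacterial gene, and the others received it against Ime4 and dMettl14 together, the methyltransferase pair (group Ime4_dMettl14), or against Fl2d, Vir, Nito or CG7358, which are further proteins of the writer complex (CG7358 is annotated as Flacc). Whether the 3 libraries of a group stem from separate cultures is not in the labels, and the spread behind every p-value may therefore be technical. With 1 group per target, off-target effects of a double-stranded RNA and the loss of its target cannot be told apart. All 5 knockdowns were compared with the same 3 Control libraries.

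Libraries held 15743484 to 18100792 counts, and the targeted transcripts fell to between 10.5% (Mettl3, the annotated name of Ime4) and 29.6% (Flacc) of the Control mean in the group treated against them. The 6 hemocyte markers together reached 463 to 495 CPM (read counts scaled by library size and composition) in Control, 458 to 486 in Ime4_dMettl14, 433 to 470 in Fl2d, 426 to 458 in Vir, 443 to 448 in CG7358 and 343 to 360 in Nito, so the Vir, CG7358 and Nito libraries lay wholly below Control. The 4 neuron markers gave 25 to 28.4 CPM in Control and 29.9 to 38.7 in Nito, the 4 muscle markers 92.5 to 103 and 83.8 to 87.4, and the 2 germ line markers 13.8 to 16.1 and 20.9 to 22.2. The 2 crystal cell markers gave 4.64 to 5.23 CPM in Control and 2.56 to 3.45 in Nito, and the 2 lamellocyte markers 36.4 to 39.8 and 38.5 to 40.8. Fat body markers stayed at or under 4.28 CPM and testis markers at or under 0.123 CPM in every library. Control replicate 1 stood apart from its group. The chi-square per degree of freedom between libraries was 11.4 and 14.7 for Control replicate 1 against the other 2, which differed by 2.25, and within the other groups it reached 12.7 (Fl2d replicates 1 and 2). Mitochondrial genes held 2.23% of counts in Control replicate 1, 2.01% in Fl2d replicate 1 and 2.64% to 4.06% in the others. Without Control replicate 1, which all 5 knockdown comparisons use, edgeR called 1 of the 36 genes counted below in Ime4_dMettl14 (3 with it), 11 in Fl2d (14), 15 in Vir (19), 23 in Nito (25) and 15 in CG7358 (17). Without Fl2d replicate 1 it called 13 in Fl2d. Nito libraries also detected more genes, 11156 to 11312 against 10366 to 10847 elsewhere. In bulk RNA, fewer cells of a kind and less RNA per cell cannot be told apart.

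In Control cells the pump was among the better expressed of these genes and the conjugation and initiation factors were mostly far below it. Levels are compared between genes as CPM per kb of exon. The highest was Vha16-1, which encodes the proteolipid subunit c of the proton-conducting ring, at 651 CPM per kb, followed by the accessory subunit VhaAC45 at 246, the ring subunit VhaPPA1-1 at 237 and the ATP-binding subunit B gene Vha55 at 217. Atg8a came next at 163 CPM per kb and ref(2)P stood at 116. The kinase Atg1 was at 10.4, Rubicon at 7.99 and Atg12 at 7.89 CPM per kb. Of the 37 steps between neighbours in this order, 20 separated genes whose 3 Control libraries did not overlap and 17 joined genes whose libraries did.

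**Figure D1:**
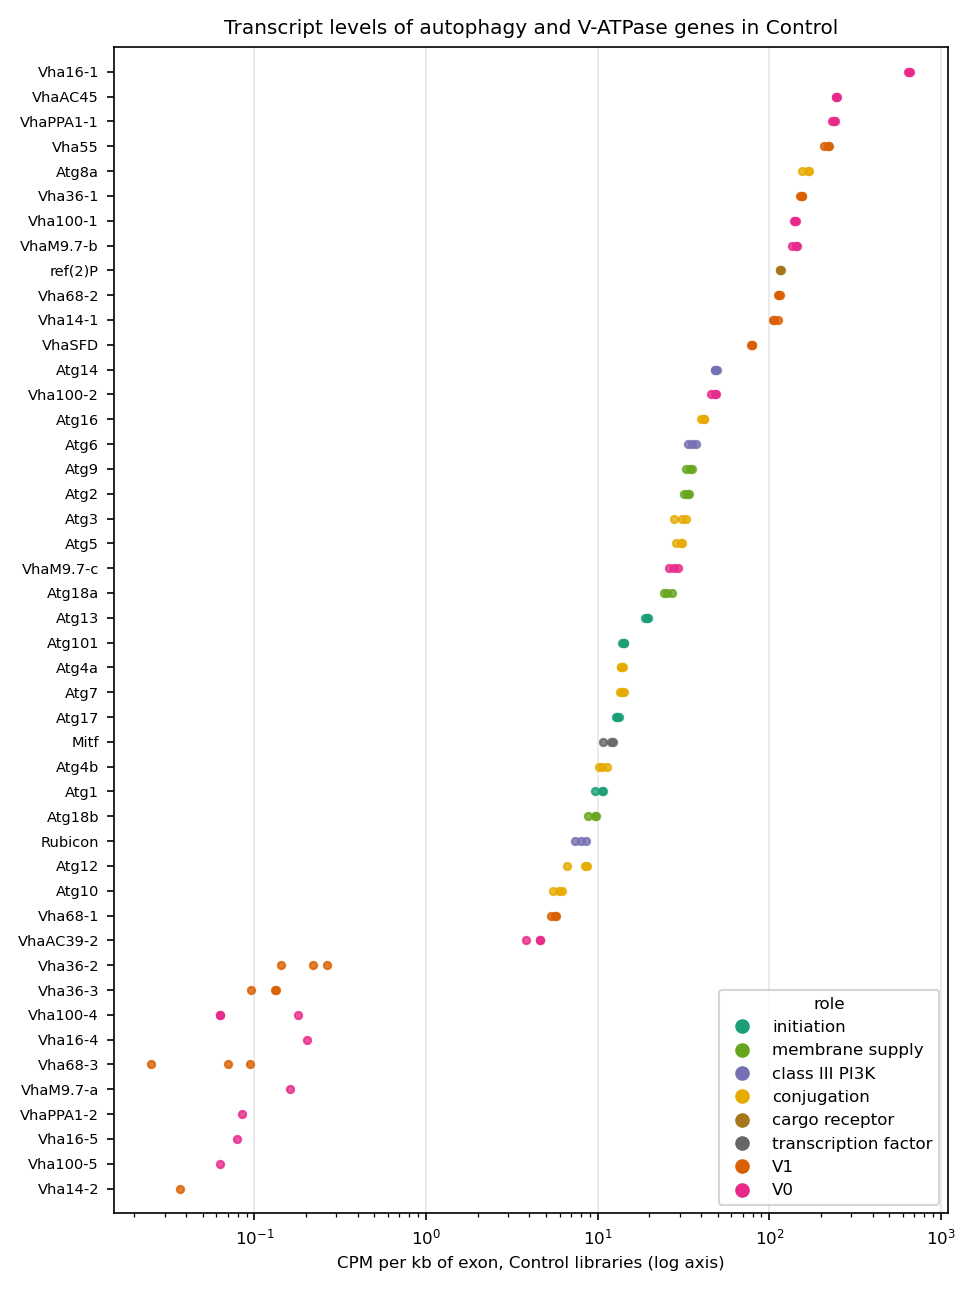
Transcript level of each gene in the 3 Control libraries, as CPM per kb of exon on a log axis, coloured by role; each point is 1 library and a library at 0 is not drawn. The V0 subunit Vha16-1 lies highest at 651 CPM per kb, and the genes listed below VhaAC39-2 (4.34) all lie under 1.

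Most paralogous copies of pump subunits gave few or no counts. Of the 14 genes that had a row and failed the filter, 13 encode V-ATPase subunits and the other is Atg8b, a paralog of Atg8a. Atg8b, Vha100-3, Vha16-3 and VhaM9.7-d had 0 counts in all 18 libraries, which allows a level of up to 0.166 to 0.191 CPM in a library (3 counts). The other 10 reached at most 8 counts in a library (Vha100-4, with 0 to 8). Such limits cover counting error only.

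A further pair, Vha36-3 and Vha68-3, copies of the D and A subunit genes of the V1 sector, passed the filter only through knockdown libraries. Vha36-3 had 3, 3 and 2 counts in Control and 18, 17 and 20 in Nito, and Vha68-3 had 3, 4 and 1 in Control and 7, 10 and 12 in Nito. Both gave estimates above 0 in all 5 knockdowns, with calls for Vha36-3 in Vir and Nito and for Vha68-3 in Vir, Nito and CG7358. The Vir calls of both and the CG7358 call of Vha68-3 were lost when 1 library was left out. A gene that reaches the filter only where it is high had to differ, so both are left aside below and the counts are given over the other 36 genes, 14 of them Vha genes.

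By edgeR's F test, 33 of the 36 differed among the 6 groups at a Benjamini-Hochberg adjusted p under 0.05, as did 76.9% of all genes tested. The exceptions were Atg3 (adjusted p = 0.309) and Atg12 (0.678), which encode an E2-like enzyme and a ubiquitin-like protein of conjugation, and Vha100-1 (0.149), the major gene for subunit a of V0. Vha100-1 stood at 457, 468 and 464 CPM in Control and 451, 449 and 448 in Nito. Its log2 fold changes in the 5 knockdowns lay between −0.044 and 0.022, with an approximate 95% interval (1.96 SE) of −0.094 to 0.006 in Nito.

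In Nito most pump transcripts were lower and part of the autophagy transcripts higher than in Control. Of the 14 Vha genes 12 fell and 1 rose, with a median log2 fold change of −0.31, while of the 19 Atg genes 9 rose and 1 fell, with a median of 0.085. In all 25 of 36 genes changed, 11 higher and 14 lower, where 60.7% of all genes tested did (29.8% higher, 30.9% lower, median 0.001). The total share was near the background, so the direction within each family is what the counts add. Summed over the 14 Vha genes, the level was 4952, 5068 and 5064 CPM in Control and 4348, 4368 and 4432 CPM in Nito. Summed over the 19 Atg genes it was 1344, 1353 and 1348 CPM in Control and 1556, 1551 and 1562 CPM in Nito, so the groups do not overlap in either sum. The summed hemocyte, muscle and crystal cell markers were lower and the summed neuron and germ line markers higher in the same libraries, and their part in these changes was not tested. Members of a list went different ways. Of the hemocyte markers, mean levels in Control and Nito were 246 and 159 CPM for srp, 56.8 and 30.1 for Sr-CI, 165 and 151 for Pxn, 11.5 and 11.3 for Hml, 1.19 and 1.69 for He, and 0.234 and 0.64 for NimC1. The muscle sum was nearly all Mef2 (96.7 and 84.5 CPM), while Mhc, Act57B and up were at or under 0.7 CPM and higher in Nito. The crystal cell sum was nearly all PPO2 (4.87 and 2.93 CPM), with lz at 0.0983 and 0.133. The neuron sum was mostly elav (24.9 and 31.6 CPM), with Syt1 at 0.27 and 0.096, and the germ line sum mostly bam (14.9 and 20.3 CPM).

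**Figure D2:**
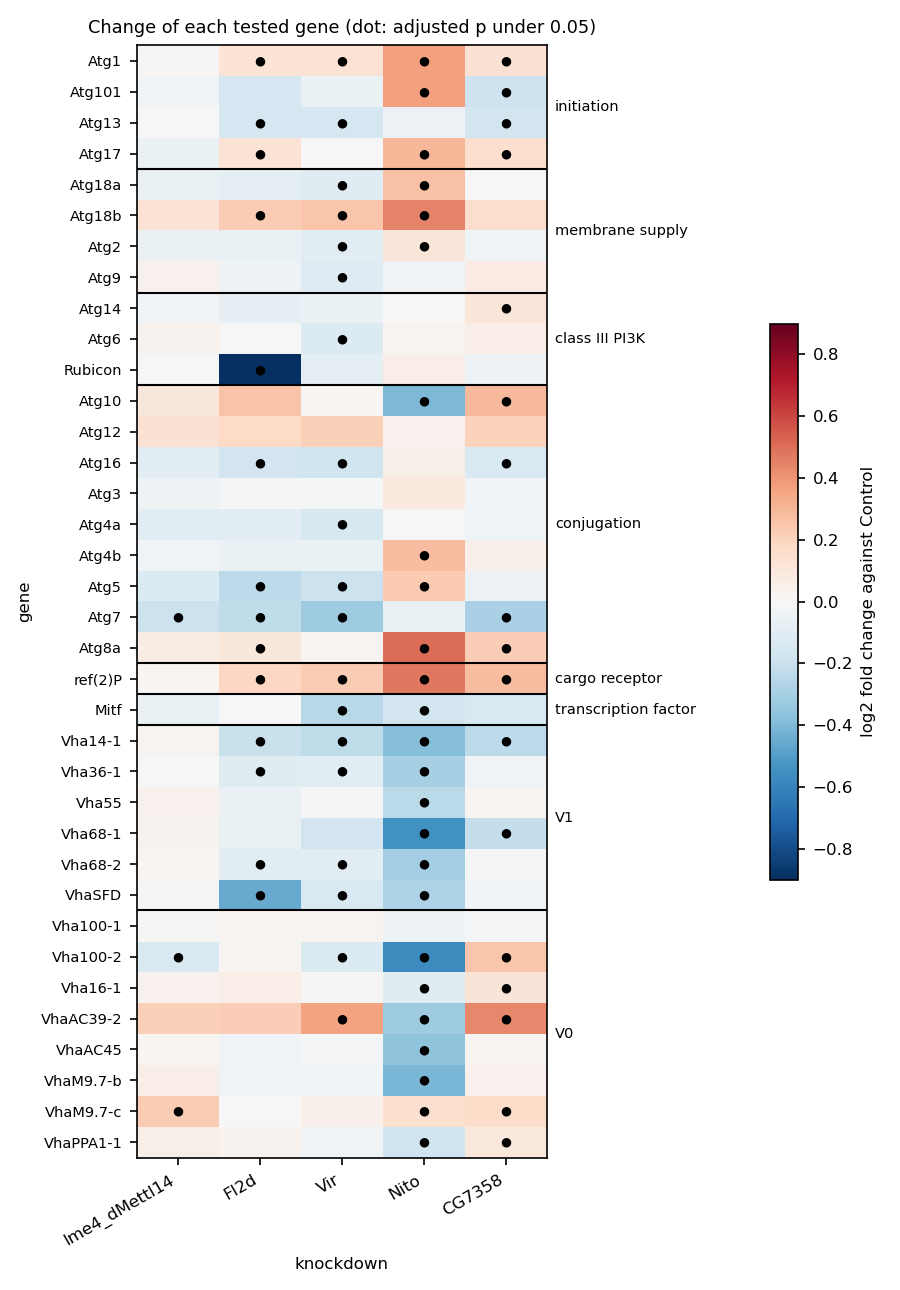
Log2 fold change of 36 genes in each knockdown against Control, in rows ordered by role, from blue (lower) to red (higher), with a dot where the adjusted p is under 0.05. The Nito column is blue across most V1 and V0 rows and red in most initiation and membrane supply rows and part of conjugation, and the darkest cell is Rubicon in Fl2d.

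All 6 V1 genes tested outside the low pair fell in Nito, and Vha13, Vha26 and Vha44 were not analysed here. Vha14-1, the F subunit of the rotor stalk (FBgn0262512, chromosome 2R, 15679426 to 15680084, minus strand, BDGP6), stood at 69.3, 70.5 and 73.7 CPM in Control and 54.5, 54.2 and 54.8 in Nito, a log2 fold change of −0.39 ± 0.041 SE (edgeR adjusted p = 1.4e-09). Vha68-1, the less expressed gene for the ATP-splitting subunit A (FBgn0265262, 2L, 13000770 to 13004107), stood at 14.3, 15.1 and 15.2 CPM in Control and 11.4, 9.39 and 9.92 in Nito (−0.54 ± 0.077, adjusted p = 4.02e-07 by edgeR). Its paralog Vha68-2, at 314 ± 5.17 CPM in Control (SD, n = 3) and 254 ± 3.07 in Nito, fell by 0.31 on the log2 scale. In each of these genes all 3 Nito libraries lay below all 3 Control libraries. The D subunit gene Vha36-1, the H subunit gene VhaSFD and the B subunit gene Vha55 fell to 81.1%, 82.7% and 84.7% of Control.

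In the V0 sector the fall was uneven between genes for the same subunit. Vha100-2, the second gene for subunit a (FBgn0028670, 3R, 18390323 to 18399169, minus strand), stood at 158, 155 and 147 CPM in Control, 143, 135 and 142 in Ime4_dMettl14, 151, 153 and 161 in Fl2d, 144, 134 and 143 in Vir, 101, 103 and 105 in Nito, and 176, 185 and 188 in CG7358. The Nito libraries were the lowest of all 18 and the CG7358 libraries the highest. Its log2 fold change in Nito was −0.57 ± 0.038 SE (edgeR adjusted p = 2.83e-14), while that of Vha100-1 was −0.044 ± 0.026 (adjusted p = 0.134 by edgeR). Vha100-2 made up 26.1%, 25.2% and 24.4% of the per-kb level of all subunit a genes together in Control, and 18.7%, 19% and 19.2% in Nito. VhaM9.7-b, which encodes subunit e, stood at 164, 174 and 176 CPM in Control and 130, 126 and 130 in Nito (−0.41 ± 0.035, adjusted p = 1.4e-11 by edgeR). Its paralog VhaM9.7-c went the other way, from 23.7, 25.0 and 22.1 CPM to 26.5, 25.5 and 26.3. Its share of the per-kb level of all subunit e genes was 17.1%, 17.1% and 15.2% in Control and 22.6%, 22.5% and 22.4% in Nito. The rise of VhaM9.7-c itself was small (0.15 ± 0.062, adjusted p = 0.0433 by edgeR), and its adjusted p was 0.0511 to 0.244 without Control replicate 1 or 3 or any one Nito replicate.

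Among the other V0 genes in Nito, VhaAC45 fell to 77.8%, VhaPPA1-1 to 88.4% and Vha16-1 to 92.6% of Control. VhaAC39-2, at 5.67, 4.74 and 5.66 CPM in Control and 3.83, 5.18 and 3.84 in Nito, was called lower (−0.32 ± 0.137, edgeR adjusted p = 0.0444), with libraries that overlap. Without Control replicate 1 or 3 or Nito replicate 1 or 3 its adjusted p was 0.112 to 0.182. VhaAC39-2 encodes a copy of subunit d, and its paralog VhaAC39-1 was not analysed here.

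**Figure D3:**
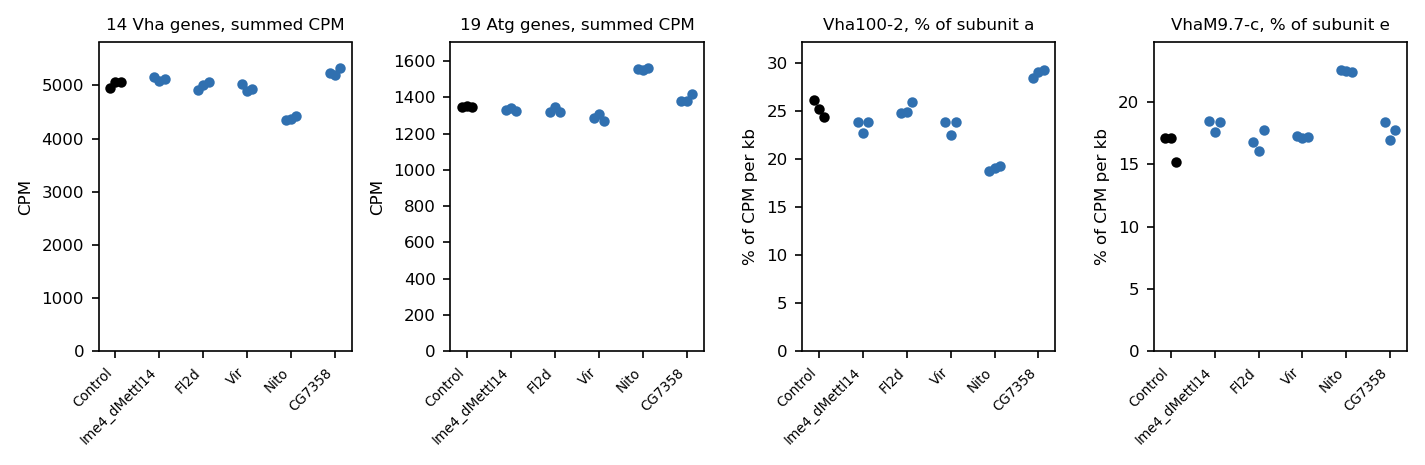
Left to right: summed CPM of 14 Vha genes, summed CPM of 19 Atg genes, and the percentage of the per-kb level of subunit a held by Vha100-2 and of subunit e held by VhaM9.7-c, with 1 point for each library and Control in black. In all 4 panels the 3 Nito libraries lie apart from the other 15, low for the Vha sum (4348 to 4432 CPM) and the Vha100-2 share, and high for the Atg sum and the VhaM9.7-c share.

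Of the initiation complex, 3 of 4 genes rose in Nito. Atg1 (FBgn0260945, 3L, 12784429 to 12805116, minus strand) stood at 44.2, 44.5 and 40.1 CPM in Control, 42.3, 43.1 and 44.2 in Ime4_dMettl14, 46.4, 47.8 and 46.1 in Fl2d, 48.3, 45.1 and 48.0 in Vir, 54.6, 56.7 and 55.5 in Nito, and 46.4, 47.3 and 47.8 in CG7358. Its log2 fold change in Nito was 0.37 ± 0.045 SE (edgeR adjusted p = 1.77e-08), and the Nito libraries were the highest of all 18. Atg101 stood at 26.2, 26.4 and 25.5 CPM in Control and 33.4, 35.6 and 31.6 in Nito (0.37 ± 0.058), and Atg17, the scaffold, reached 123% of Control. Atg13 did not pass the test in Nito (−0.051 ± 0.042).

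Of the membrane supply genes, Atg18b and Atg18a, which bind phosphoinositides, rose in Nito to 136% and 120% of Control. Atg18b (FBgn0032935, 2L, 21212322 to 21220572, minus strand) stood at 21.4, 23.7 and 23.6 CPM in Control, 25.2, 23.6 and 26.3 in Ime4_dMettl14, 26.7, 25.8 and 28.0 in Fl2d, 27.9, 26.4 and 27.3 in Vir, 30.3, 29.5 and 33.8 in Nito, and 25.9, 23.5 and 27.2 in CG7358. The lipid transfer protein gene Atg2 was called higher at 108% of Control, with an adjusted p of 0.0745 without Control replicate 3, and the scramblase gene Atg9 did not pass the test. No PI3K complex gene passed it: the log2 fold changes of Atg14, Atg6 and Rubicon in Nito were 0.002, 0.027 and 0.06.

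In conjugation, Atg8a gave the largest rise among the 36 genes in Nito. Atg8a (FBgn0052672, X, 10764878 to 10768338, minus strand) stood at 261, 283 and 287 CPM in Control, 289, 293 and 290 in Ime4_dMettl14, 289, 307 and 294 in Fl2d, 278, 291 and 278 in Vir, 395, 383 and 399 in Nito, and 329, 311 and 328 in CG7358. The Nito libraries were the highest and those of CG7358 the next, all above Control. The log2 fold change in Nito was 0.50 ± 0.034 SE (adjusted p = 3.84e-14 by edgeR). The protease gene Atg4b rose to 121% and Atg5, the acceptor of Atg12, to 118% of Control.

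Atg10, the E2-like enzyme gene for Atg12, was the Atg gene that fell in Nito. It stood at 9.34, 9.03 and 8.3 CPM in Control and 6.93, 6.83 and 6.47 in Nito (−0.40 ± 0.115 SE, edgeR adjusted p = 0.00327). In the annotation 46.6% of its exon bases lie opposite exons of Dgk, a kinase gene that also fell in Nito (−0.40 ± 0.075, adjusted p = 3.86e-05 by edgeR). Dgk fell in Ime4_dMettl14 too (−0.37 ± 0.075, adjusted p = 0.00237 by edgeR), where Atg10 stood at 8.93, 10.8 and 9 CPM. For CG7358 the Dgk estimate was −0.16 ± 0.074 (adjusted p = 0.0938 by edgeR), while Atg10 was called higher (0.29 ± 0.106). Whether the counting used strand is not given in the sources used here, so reads of the pair cannot be told apart. The same holds for Atg4a, with 51.4% of its exon bases opposite CG4629, which was at 1.02 CPM in Control against 56.4 for Atg4a.

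The cargo receptor gene ref(2)P (FBgn0003231, 2L, 19542468 to 19545548) was higher in 4 of the knockdown groups than in any Control library. It stood at 276, 276 and 279 CPM in Control, 279, 279 and 282 in Ime4_dMettl14, 318, 313 and 316 in Fl2d, 327, 315 and 334 in Vir, 378, 382 and 395 in Nito, and 337, 325 and 347 in CG7358. The log2 fold changes were 0.48 ± 0.029 SE in Nito, 0.28 ± 0.029 in CG7358, 0.23 ± 0.029 in Vir, 0.19 ± 0.029 in Fl2d and 0.015 ± 0.030 in Ime4_dMettl14. The last of these did not pass the test (edgeR adjusted p = 0.85), and the weakest of the other 4 had an adjusted p of 7.14e-06 by edgeR. These comparisons share their Control libraries.

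Mitf (FBgn0263112, chromosome 4, 1198852 to 1224467) stood at 49.0, 55.1 and 56.7 CPM in Control, 48.7, 48.2 and 56.0 in Ime4_dMettl14, 55.3, 56.5 and 48.2 in Fl2d, 47.9, 42.3 and 44.9 in Vir, 47.3, 46.5 and 49.6 in Nito, and 47.2, 48.1 and 50.9 in CG7358. The Vir libraries lay below all Control libraries, and those of Nito and CG7358 overlapped with them. Its log2 fold change was −0.25 ± 0.068 SE in Vir (edgeR adjusted p = 0.0067) and −0.16 ± 0.067 in Nito (adjusted p = 0.0402 by edgeR). The Nito call was lost without Control replicate 2 or 3 or Nito replicate 1 or 2 (adjusted p 0.073 to 0.127).

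**Figure D4:**
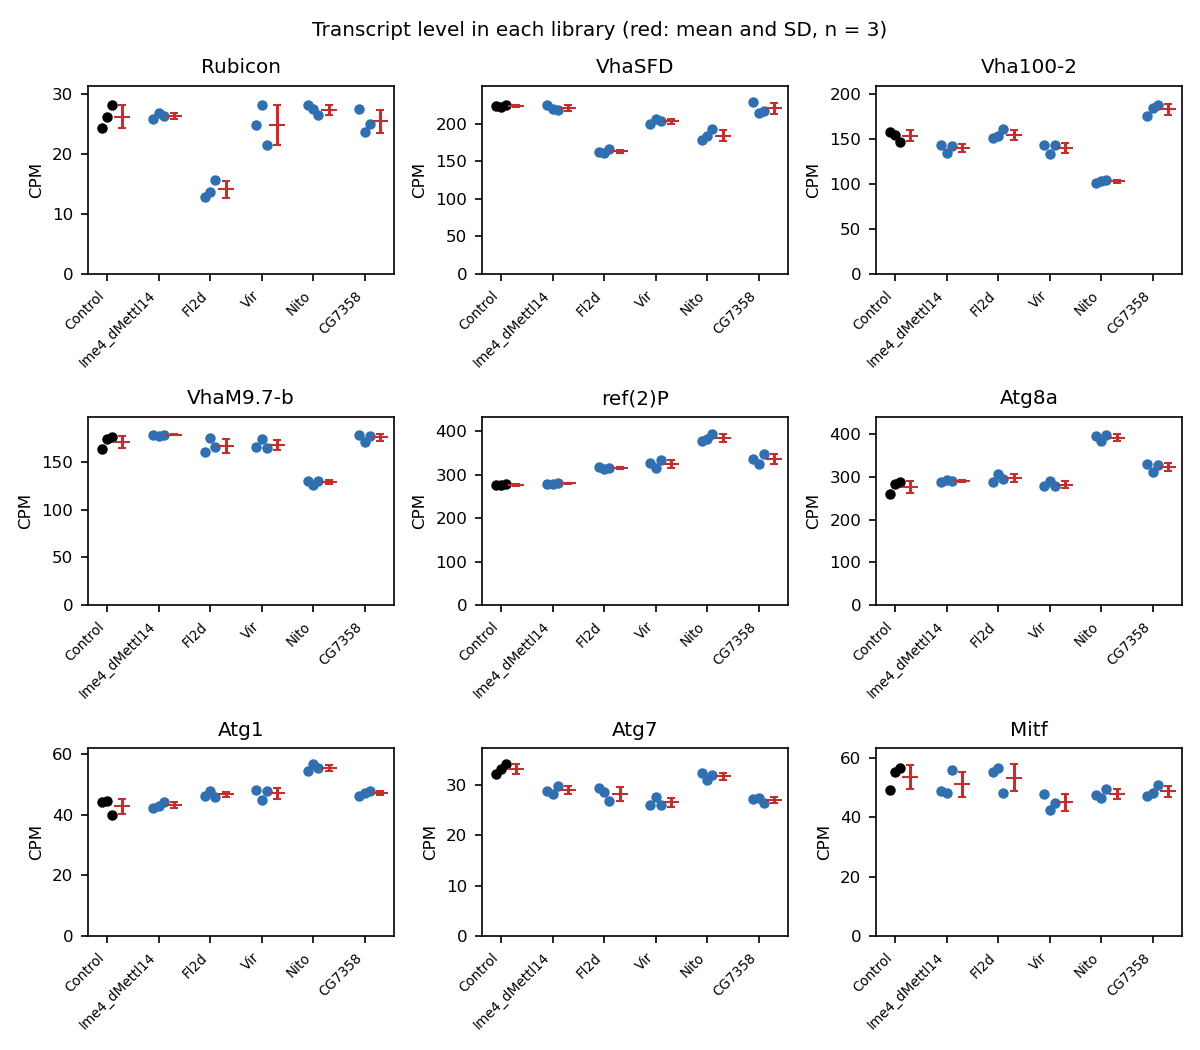
CPM of 9 genes in each library, from 0, with Control in black and the mean and SD of each group (n = 3) in red. Rubicon is lowest in Fl2d, Vha100-2 and VhaM9.7-b are lowest in Nito, and ref(2)P, Atg8a and Atg1 are highest in Nito.

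In Fl2d the log2 fold changes furthest below 0 were those of Rubicon and VhaSFD. Of the 36 genes 5 were higher and 9 lower, so 14 were called, where 32% of all genes tested were (16% in each direction). Rubicon, which in mammals restrains the class III PI3K complex (FBgn0030055, X, 8677063 to 8680912), stood at 24.3, 26.2 and 28.2 CPM in Control, 25.8, 26.8 and 26.3 in Ime4_dMettl14, 12.9, 13.6 and 15.7 in Fl2d, 24.8, 28.1 and 21.4 in Vir, 28.1, 27.4 and 26.4 in Nito, and 27.5, 23.6 and 25.0 in CG7358. The 3 Fl2d libraries were the lowest of all 18, and their log2 fold change was −0.90 ± 0.086 SE (53.8% of Control, edgeR adjusted p = 2.34e-09). VhaSFD, the H subunit of V1 (FBgn0027779, 2L, 16722883 to 16727826, minus strand), stood at 223, 222 and 225 CPM in Control, 225, 219 and 218 in Ime4_dMettl14, 162, 161 and 166 in Fl2d, 200, 206 and 204 in Vir, 178, 183 and 193 in Nito, and 228, 214 and 217 in CG7358. Fl2d was again the lowest group, at 73.1% of Control (−0.45 ± 0.032, adjusted p = 1.04e-12 by edgeR). Neither gene overlaps an exon of another gene in the annotation.

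Set against the mean of Vir, Nito and CG7358, the log2 difference of Fl2d was −0.87 ± 0.073 SE for Rubicon and −0.31 ± 0.027 SE for VhaSFD. This contrast was added after both genes were seen to be lowest in Fl2d, so these values describe that observation and do not test it. Of the 36 genes 7 were higher and 10 lower in it, where 27.2% of all genes tested were called (14.5% higher, 12.7% lower). The germ line markers gave 17.2 to 17.9 CPM in Fl2d and 13.8 to 16.1 in Control, and their part was not tested.

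The rest of the Fl2d changes were smaller. Atg5 stood at 43.2, 40.3 and 43.7 CPM in Control and 34.8, 37.4 and 35.8 in Fl2d (−0.24 ± 0.054 SE), and Atg7, the E1-like enzyme of both conjugation arms, at 32.2, 33.2 and 34.1 CPM against 29.4, 28.5 and 26.8 (−0.23 ± 0.053). Vha14-1 fell to 64.5, 59.3 and 61.8 CPM (−0.20 ± 0.041), and Vha36-1, Vha68-2, Atg13 and Atg16 fell to between 88.6% and 93.4% of Control. In each of these genes all Fl2d libraries lay below all Control libraries. Atg18b, Atg1, Atg17 and Atg8a were called higher at 107% to 117% of Control. Their adjusted p rose to 0.0509 to 0.325 when 1 library was left out, for Atg18b without Control replicate 1 or Fl2d replicate 3, for Atg17 without Control replicate 1 or 2 or Fl2d replicate 1 or 3, for Atg8a without Control replicate 1 or Fl2d replicate 2 or 3, and for Atg1 without Control replicate 1 or 3 or any one Fl2d replicate.

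In Vir most of the called genes were lower. Of the 36 genes 4 were higher and 15 lower, where 34% of all genes tested were called (16.7% higher, 17.3% lower). The Atg genes gave 2 higher and 9 lower of 19, with a median log2 fold change of −0.060, and the summed Atg level was 1288, 1309 and 1270 CPM against 1344, 1353 and 1348 in Control. Against Control the Vir libraries also had lower sums of hemocyte (426 to 458 against 463 to 495 CPM) and neuron markers (15.3 to 24.8 against 25 to 28.4). Sums of muscle (105 to 111 against 92.5 to 103) and germ line markers (16.8 to 19.7 against 13.8 to 16.1) were higher, and the part of these lists was not tested. Members of a list went different ways. Mean levels in Control and Vir were 246 and 223 CPM for srp, 165 and 148 for Pxn and 56.8 and 55 for Sr-CI. The hemocyte markers Hml (11.5 and 15.1), He (1.19 and 3.19) and NimC1 (0.234 and 0.333) were higher in Vir. The neuron sum was mostly elav (24.9 and 18.9 CPM), with brp at 0.665 and 1. The muscle sum was nearly all Mef2 (96.7 and 107 CPM). Act57B (0.237 and 0.148) was lower in Vir, and Mhc (0.0968 and 0.125) and up (0.194 and 0.229) were higher. The germ line sum was mostly bam (14.9 and 17.9 CPM). Atg7 fell furthest, to 25.9, 27.6 and 26.0 CPM (−0.32 ± 0.054 SE, edgeR adjusted p = 1.58e-05). Vha14-1 fell to 58.3, 60.6 and 63.1 CPM (−0.23 ± 0.041), Atg5 to 36.3, 38.8 and 36.2 (−0.19 ± 0.054), and Atg16, the partner of Atg5 and Atg12, from 103, 107 and 106 to 98.0, 90.2 and 91.5 (−0.18 ± 0.037). VhaSFD and Vha68-2 fell to 91.1% and 93.3% of Control, and Atg18b rose to 119%. These, with ref(2)P and Mitf, are the 9 Vir calls that held in each alternative.

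The other Vir calls were each lost in at least 1 alternative. Leaving out 1 library reduced the count over the 36 genes from 19 to between 11 (without Vir replicate 3) and 17. Without Vir replicate 3 the adjusted p was 0.0694 for Atg13, 0.0811 for Vha36-1, 0.0885 for Atg1, 0.117 for Atg4a, 0.119 for Atg9, 0.127 for Atg6, 0.153 for VhaAC39-2 and 0.198 for Atg18a. Without Vir replicate 1 it was 0.0612 for Atg6, 0.0708 for Atg18a, 0.0832 for Atg1, 0.0928 for Atg4a, 0.136 for Atg2 and 0.221 for Atg9. Without Vir replicate 2 it was 0.054 for Atg18a, 0.0608 for Atg6 and 0.0669 for Vha100-2. Without Control replicate 1 it was 0.104 for Atg2, 0.151 for Atg9, 0.195 for Atg6 and 0.27 for Atg18a, without Control replicate 2 it was 0.0701 to 0.135 for Atg18a, Atg2, Atg4a, Atg9 and VhaAC39-2, and without Control replicate 3 it was 0.0756 for Atg6 and 0.159 for Atg1. DESeq2 called 12 of the 36.

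In CG7358 part of the V0 genes were called higher. Of the 36 genes 11 were higher and 6 lower, where 37.6% of all genes tested were called (18.8% in each direction). Of the 8 V0 genes tested 5 were higher and 0 lower, while of the 6 V1 genes tested outside the low pair 0 were higher and 2 lower. Of those 5, the calls of Vha100-2 and Vha16-1 held in each alternative, and those of VhaAC39-2, VhaPPA1-1 and VhaM9.7-c did not. Vha100-2 rose by 0.25 ± 0.037 SE on the log2 scale (edgeR adjusted p = 2.32e-06) and Vha16-1 went from 1972, 2016 and 2024 CPM to 2149, 2122 and 2255 (0.12 ± 0.029). The summed Vha level was 5235, 5193 and 5328 CPM, above all 3 Control libraries. In the same libraries the summed hemocyte markers gave 443 to 448 CPM against 463 to 495 in Control. The lamellocyte markers gave 43.2 to 45.2 against 36.4 to 39.8, and the part of either list was not tested. Of the hemocyte markers, srp (mean 246 CPM in Control and 219 in CG7358) and Pxn (165 and 145) were lower. Hml (11.5 and 14.2), Sr-CI (56.8 and 64.1), He (1.19 and 2.92) and NimC1 (0.234 and 0.308) were higher. Of the autophagy genes, Atg8a rose by 0.22 ± 0.034 (adjusted p = 4.54e-06 by edgeR) and Atg17 by 0.15 ± 0.038. Atg7 fell to 27.2, 27.4 and 26.3 CPM (−0.29 ± 0.053), Vha14-1 to 61.5, 59.5 and 60.4 (−0.23 ± 0.041), Atg13 from 59.1, 57.0 and 58.4 to 50.0, 52.7 and 53.1 (−0.16 ± 0.043), and Atg16 to 91.1% of Control.

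The remaining CG7358 calls were lost on leaving out 1 library. VhaAC39-2, at 7.6, 7.01 and 7.11 CPM, was called higher (0.43 ± 0.125 SE, edgeR adjusted p = 0.00642) with an adjusted p of 0.0511 without Control replicate 2. Atg10, at 10.5, 12.1 and 9.92 CPM, was called higher (0.29 ± 0.106), with 0.195 without CG7358 replicate 2, 0.0594 without Control replicate 2 and 0.111 without Control replicate 3. Atg101, at 24.3, 21.3 and 23.0 CPM, was called lower (−0.19 ± 0.062), with 0.125 without CG7358 replicate 2. VhaPPA1-1 gave 0.0663 without CG7358 replicate 1 and 0.0939 without Control replicate 1. Vha68-1, at 12.8, 12.9 and 12.8 CPM (−0.21 ± 0.075), gave 0.056 to 0.072 without Control replicate 2 or 3 or any one CG7358 replicate. Atg1 gave 0.0537 to 0.167 without Control replicate 3 or CG7358 replicate 2 or 3, Atg14 gave 0.0592 to 0.15 without Control replicate 1 or 2 or CG7358 replicate 2 or 3, and VhaM9.7-c gave 0.0971 to 0.233 without Control replicate 1 or 3 or CG7358 replicate 1 or 3.

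Set against Vir directly, in the fit to all 18 libraries, CG7358 was higher in 10 of the 36 genes and lower in 0. Of all genes tested 13.7% were called (7.41% higher, 6.33% lower). At an unadjusted p under 0.05 it was 15 of the 36 in all, and DESeq2 called 9, all higher. A fit of the CG7358 and Vir libraries only called 7, all higher. The share of 13.7% belongs to the main edgeR test. No share over all genes is given for these other settings, so their counts cannot be set against it. Vha100-2 differed most, at 176, 185 and 188 CPM in CG7358 and 144, 134 and 143 in Vir, a log2 difference of 0.38 ± 0.037 SE (edgeR adjusted p = 8.74e-09). The share of subunit a held by Vha100-2 was 28.4%, 29% and 29.2% in CG7358 and 23.8%, 22.5% and 23.8% in Vir. Atg8a differed by 0.19 ± 0.034 (adjusted p = 0.00016 by edgeR), with 329, 311 and 328 CPM against 278, 291 and 278. Atg9 stood at 103, 102 and 101 CPM in CG7358 and 85.7, 94.8 and 88.4 in Vir (0.18 ± 0.042), and VhaPPA1-1 at 349, 337 and 340 CPM against 314, 311 and 313 (0.13 ± 0.029). In these 4 genes no CG7358 library overlapped with a Vir library, and the calls held in each alternative.

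The PI3K complex genes Atg6 and Atg14 were also called higher in CG7358 than in Vir, at 58.1, 54.5 and 53.4 CPM against 49.5, 49.1 and 47.8 (0.18 ± 0.045 SE) and at 95.7, 101 and 96.9 CPM against 87.6, 91.2 and 83.1 (0.17 ± 0.039). Atg17, VhaSFD, Vha16-1 and Vha68-2 were called at 106% to 111% of the Vir level. In the fit of the CG7358 and Vir libraries only, the edgeR adjusted p was 0.0604 for Vha16-1, 0.0516 for VhaSFD and 0.112 for Vha68-2. Leaving out 1 library reduced the 10 calls to between 6 (without Vir replicate 3) and 9. The adjusted p was 0.0621 for Atg6 without CG7358 replicate 1, 0.0701 for Atg14 without Vir replicate 3, 0.0616 for Atg17 without CG7358 replicate 3, 0.0551 to 0.121 for Vha16-1 without Vir replicate 2 or 3 or CG7358 replicate 3, 0.0611 to 0.131 for VhaSFD without Vir replicate 1 or 3 or CG7358 replicate 1, and 0.0712 to 0.173 for Vha68-2 without Vir replicate 1 or 3 or any one CG7358 replicate. The neuron markers gave 22.7 to 29.9 CPM in CG7358 and 15.3 to 24.8 in Vir, and the germ line markers 15.4 to 16.5 and 16.8 to 19.7, and their part was not tested. The neuron sum was mostly elav (mean 24.4 CPM in CG7358 and 18.9 in Vir), with brp at 0.934 and 1. For ref(2)P, Atg7, Vha14-1 and Atg13 the log2 differences were 0.048, 0.028, −0.005 and −0.009 with standard errors of 0.029 to 0.056, which does not show that their levels are alike.

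**Figure D5:**
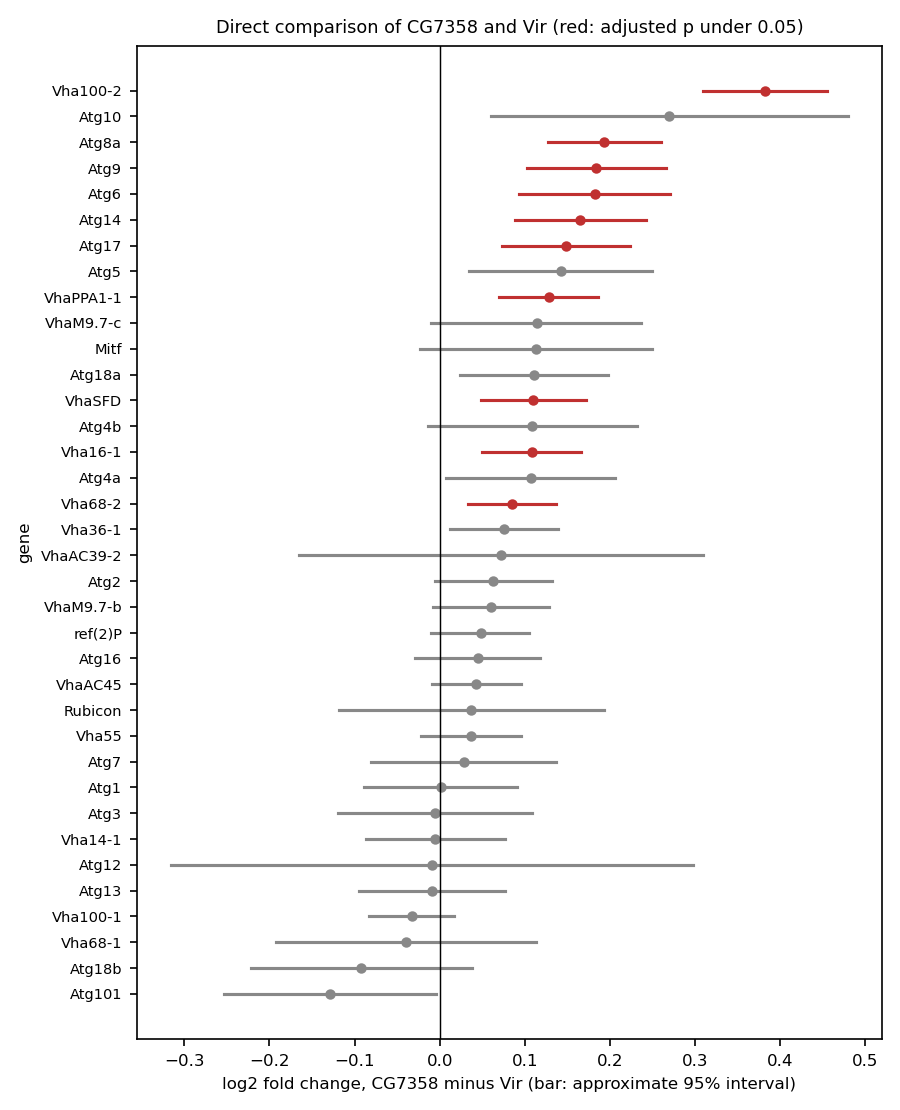
Log2 fold change of 36 genes in CG7358 relative to Vir, with bars for the approximate 95% interval (1.96 SE) and red for an adjusted p under 0.05. The 10 red genes all lie above 0, from Vha68-2 at 0.085 to Vha100-2 at 0.38.

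Depletion of the methyltransferase pair itself gave few calls, among these genes as among all genes tested. In Ime4_dMettl14 1 of the 36 was higher and 2 were lower, where 5.63% of all genes tested were called (3.01% higher, 2.63% lower). VhaM9.7-c stood at 28.4, 26.4 and 28.3 CPM against 23.7, 25.0 and 22.1 in Control (0.23 ± 0.062 SE, edgeR adjusted p = 0.0219), Atg7 at 28.8, 28.2 and 29.8 CPM (−0.19 ± 0.052, adjusted p = 0.0236 by edgeR) and Vha100-2 at 143, 135 and 142 CPM (−0.13 ± 0.037, adjusted p = 0.0275 by edgeR). The Ime4_dMettl14 and Control libraries of these genes did not overlap. The neuron markers gave 16.2 to 23.1 CPM in Ime4_dMettl14 and 25 to 28.4 in Control, and the fat body markers 0.87 to 1.44 and 2.06 to 3.26. The lamellocyte markers gave 35.5 to 36.2 and 36.4 to 39.8 CPM, nearly all from PPO3. The part of these lists was not tested. The neuron sum was mostly elav (mean 18 CPM in Ime4_dMettl14 and 24.9 in Control), with brp at 0.886 and 0.665. The fat body sum was mostly apolpp (1.06 and 2.36 CPM), with Lsp1alpha at 0.04 and 0. Leaving out 1 library left 0 (without Ime4_dMettl14 replicate 1) or 1 of the 3 calls (without any other), with adjusted p of 0.0505 to 0.194 for those lost, and DESeq2 called 1, Vha100-2.

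The Nito group was also compared with the mean of Fl2d, Vir and CG7358. A fit of the libraries of these groups only called 29 of the 36 genes, and no share over all genes is given for that fit. In the fit to all 18 libraries 15 of the 36 were higher and 14 lower, where 62.6% of all genes tested were called (30.9% higher, 31.8% lower). Of the 14 Vha genes 0 were higher and 13 lower, with a median log2 difference of −0.22, and of the 19 Atg genes 13 were higher and 1 lower, with a median of 0.21, where the median over all genes was 0.002. The furthest below were VhaAC39-2 (−0.66 ± 0.110 SE), Vha100-2 (−0.62 ± 0.032), Atg10 (−0.59 ± 0.094), VhaM9.7-b (−0.40 ± 0.029) and Vha68-1 (−0.39 ± 0.066), with edgeR adjusted p between 3.66e-17 and 4.51e-06. The furthest above were Atg101 (0.50 ± 0.048), Rubicon (0.40 ± 0.064), Atg5 (0.39 ± 0.042) and Atg8a (0.39 ± 0.027). For Rubicon the mean level was 27.3 CPM in Nito, 24.8 in Vir, 25.4 in CG7358 and 14.1 in Fl2d. Atg13, Atg4a, Vha100-1 and VhaSFD were also called, at 0.11, 0.098, −0.054 and −0.072. Their adjusted p was 0.0514 to 0.318 without Nito replicate 2 or 3 for Atg13 and Vha100-1, without Nito replicate 1 or 2 for VhaSFD, and without Nito replicate 3, Fl2d replicate 1, Vir replicate 1 or 3 or CG7358 replicate 2 or 3 for Atg4a.

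Genes that work with these factors moved in both directions in Nito. Of 16 lysosomal enzyme and membrane protein genes tested 3 were higher and 8 lower, where 29.8% of all genes tested were higher and 30.9% lower, which is also the background for the other lists in Nito. The lysosomal genes with the smallest p were Hexo2, a beta-hexosaminidase (−0.73 ± 0.033 SE), Cln7, a lysosomal membrane transporter (−1.82 ± 0.092), and Sap-r, the saposin precursor (−0.40 ± 0.027). Of 4 V-ATPase accessory and assembly factors outside the rule 2 were higher and 2 lower: Rbcn-3B, a pump assembly factor, rose by 0.37 ± 0.029, the accessory subunit ATP6AP2 fell by 0.35 on the log2 scale, and mtd, a TLDc-domain gene, fell by 0.87. Of 16 genes of autophagosome and lysosome fusion 8 were higher and 2 lower, with car, a subunit of the tethering complex, up by 0.42 ± 0.050 and the SNARE gene Vamp7 down (−0.29 ± 0.033). Of 29 TOR and nutrient signalling genes 10 were higher and 5 lower, of 8 class III PI3K and endosomal regulators 1 and 1, and of 8 mitophagy and protein quality control genes 3 and 1, with ntc, an F-box protein gene, up by 0.95 ± 0.074.

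The same lists in the other groups gave mixed counts. Over all genes tested, 16% were higher and 16% lower in Fl2d, 16.7% and 17.3% in Vir, 18.8% and 18.8% in CG7358, 3.01% and 2.63% in Ime4_dMettl14, and 7.41% and 6.33% in CG7358 against Vir, and several of the counts lie near these shares. Lysosomal genes were higher in 7 and lower in 4 of 16 in Fl2d, 2 and 5 in Vir, 7 and 5 in CG7358, and 1 and 0 in Ime4_dMettl14. Against Vir, CG7358 was higher in 5 and lower in 1 of them, among them Hexo2 (0.34 ± 0.032 SE), the cathepsin genes CtsF (0.28 ± 0.029) and cathD (0.19 ± 0.029). The mtd transcript stood at 292 CPM in Control and was lower by 0.73 in Fl2d and Vir and by 0.68 in CG7358 on the log2 scale. Fusion genes were higher in 0 and lower in 3 of 16 in Fl2d, 0 and 4 in Vir, 1 and 3 in CG7358, and 0 and 1 in Ime4_dMettl14. TOR genes were higher in 3 and lower in 7 of 29 in Fl2d, 1 and 8 in Vir, 1 and 6 in CG7358, and 0 and 0 in Ime4_dMettl14, where Sesn, the sestrin gene, was among those lower in Fl2d, Vir and CG7358. Accessory factors were higher in 0 and lower in 1 of 4 in Fl2d and Vir, and 1 and 1 in CG7358. PI3K regulators were higher in 0 and lower in 1 of 8 in Fl2d, 4 in Vir and 1 in CG7358, and mitophagy genes were higher in 1 of 8 in Fl2d, 3 in Vir and 2 in CG7358 and lower in 0, with cnc, the Nrf2 counterpart, among the higher in all 3.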

How the data were processed

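Per the labels' protocols, S2R+ poly(A) RNA went into directional libraries. The authors deposited raw read counts per FlyBase gene for each of 18 libraries. STAR 2.5.1b, featureCounts 1.5.1 and BDGP6 are the tools and build in the submitters' processing notes. How strand, multiply mapped reads and gene overlaps were handled is not given in the sources used here, so counts of close paralogs (the Vha68, Vha16 and Vha100 copies) and of antisense pairs are uncertain. Positions, symbols and exon lengths come from the Ensembl release 115 annotation of BDGP6, in which 17253 of 17559 IDs were found. The other 306 held 4.83% of counts and stayed in the tests.

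In R 4.3.3 with edgeR 4.0.16, counts were filtered with filterByExpr (about 10 counts, 0.603 CPM, in 3 libraries), scaled by TMM and fitted with a robust quasi-likelihood model to all 18 libraries with 1 coefficient per group. Benjamini-Hochberg adjustment covered all 8146 tested genes, and a gene was called at an adjusted p under 0.05. The SE is the log2 fold change divided by the square root of F. The common biological coefficient of variation was 0.0432, and libraries of a group differed by more than sampling noise (chi-square per degree of freedom 2.25 to 14.7). The script was tested on simulated counts. Replicate numbers showed no clear pairing of the libraries across groups. DESeq2 1.42.0 was an alternative test.

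The genes, the 6 pathway lists (class III PI3K, fusion, lysosomal, TOR, V-ATPase accessory, mitophagy), the marker lists and the tests were chosen with earlier results of these data known. Library values are given for ref(2)P, Rubicon, Mitf, Atg1, Atg8a, Atg8b and, in each contrast, up to 5 called genes at each end of the log2 fold changes; the others are given by counts, ranges and single values, and list genes by smallest p.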

Additional observations from a re-analysis of the deposited data

Results flagged for a closer look

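The levels of 10 genes differed between the CG7358 and Vir knockdowns in the direct test, by log2 differences (CG7358 minus Vir) of 0.382 for Vha100-2, 0.193 for Atg8a, 0.184 for Atg9, 0.182 for Atg6, 0.165 for Atg14, 0.149 for Atg17, 0.128 for VhaPPA1-1, 0.110 for VhaSFD, 0.108 for Vha16-1 and 0.085 for Vha68-2. Vha100-2 was lower than Control in Vir (−0.13 ± 0.038 SE) and higher in CG7358 (0.25 ± 0.037), and all 3 CG7358 libraries lay above all 3 Control libraries. For Vha100-2, Atg8a, Atg9 and VhaPPA1-1 the call held in each alternative, and for the other 6 it was lost when a library was left out.

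The effect of Nito differed from the mean effect of Fl2d, Vir and CG7358 in 29 of 36 genes, Vha36-3 and Vha68-3 left aside, where 62.6% of all genes tested did (30.9% higher, 31.8% lower). The direct contrast put 13 of 14 Vha genes lower and 13 of 19 Atg genes higher.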

How the results depend on the processing

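No called gene reversed its direction under any alternative. Of 123 calls of a gene in a contrast, 81 held in each setting that tested the gene and 42 were lost in at least 1, all of them on leaving out a library. DESeq2 as the test ended 21 calls, no filter on low counts 12, a fit of the compared groups only 10, a stricter filter (3 libraries with CPM over 5) 4 and DESeq2 size factors 1. The count over 38 genes moved by more than 1.5 times in 3 contrasts. In Ime4_dMettl14 it went from 3 to 1 with DESeq2 and to between 0 and 1 on leaving out a library. In Vir it went from 21 to 13 with DESeq2 and to between 13 and 18, and in CG7358 against Vir from 10 to between 6 and 9, on leaving out a library. The ranges on leaving out a library were 11 to 14 in Fl2d (main 14), 23 to 26 in Nito (27), 13 to 15 in CG7358 (18), 27 to 31 in Nito against the mean of Fl2d, Vir and CG7358 (30) and 33 to 35 in the F test (35). With DESeq2 as the test the CG7358 count went from 18 to 12, of which 7 were higher and 5 lower. These counts include Vha36-3 and Vha68-3. Over the other 36 genes the Vir count went from 19 to 12 with DESeq2 and to between 11 and 17 on leaving out a library. The CG7358 count over them went from 17 to 12 with DESeq2. Calls lie at counts that limit them. Among the 36, genes under about 10 CPM (Atg12, VhaAC39-2 and Atg10) had standard errors of 0.106 to 0.161 against Control. Those above 200 CPM had at most 0.035. For Vha36-3 and Vha68-3, left aside above, the standard errors in CG7358 against Control were 0.609 and 0.554.

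The replicate number showed no clear pairing of the libraries. Deviations of libraries with the same number correlated at −0.0865 to 0.17 (median 0.00969), with 5 of 45 pairs over 0.1. Those of libraries with other numbers correlated at −0.126 to 0.121 (median 0.00225). Whether some libraries shared a batch was not tested. With the replicate block the counts were 3 in Ime4_dMettl14, 15 in Fl2d, 20 in Vir, 27 in Nito, 19 in CG7358, 10 in CG7358 against Vir, 31 in Nito against the mean and 35 in the F test, and 1 call was lost, Atg18a in Vir (adjusted p = 0.058 by edgeR).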
